A study of Mus musculus with 8 samples.

Results

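The interferon-gamma inducible GTPases described here are 10 genes of the mouse, 4 immunity-related GTPases (Iigp1, Igtp, Irgm1 and Irgm2) and 6 guanylate-binding proteins (Gbp2, Gbp3, Gbp4, Gbp6, Gbp7 and Gbp9). They were chosen by gene symbol out of 38406 symbols in a table of RNA read counts, and all 10 symbols were present. The libraries were made from regulatory T cells (Tregs, CD4 T cells that express Foxp3 and hold back immune responses) sorted from male C57BL/6 mice. All mice had their tibialis anterior, quadriceps and gastrocnemius muscles injured with cardiotoxin, a venom toxin that kills muscle fibres, at 0.9 µg per muscle, and muscle and spleen were taken 4 days later, so every group carries the injury. The 4 groups were young spleen and young muscle, from mice 2 months old, and aged spleen and aged muscle, from mice older than 6 months, with 2 libraries each. Each library came from 1500 Tregs, and the labels do not say whether the 2 libraries of a group came from separate animals, whether animals were pooled, or whether muscle and spleen came from the same mice. The p-values below therefore measure only the spread between these libraries, which may be technical. No uninjured mice are among these samples.

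Interferon-gamma, a cytokine made by activated T and natural killer cells, binds a receptor of 2 kinds of chain, Ifngr1 and Ifngr2, and the attached kinases Jak1 and Jak2 pass the signal on to the nucleus. There it acts through a DNA element called GAS and induces Irf1, which binds a different element, the ISRE, that the type I interferon complex with Stat2 and Irf9 also binds. The GTPases are among the strongest targets of this pathway in many mouse cells. They coat the vacuoles in which parasites and bacteria live and help break them open, and the machinery that attaches ATG8 proteins to membranes in autophagy guides them there. Irgm1, Irgm2 and Igtp are regulators that keep effectors such as Iigp1 inactive on the membranes of the cell itself, and mouse T cells without Irgm1 die when exposed to interferon-gamma.

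The stretches just upstream of the annotated start sites are shown because 5 members were lower and Gbp3 was higher in young muscle than in young spleen. They cover this result only in part. Iigp1 and Gbp9, which were lower, have no stretch here. Igtp, at 0 counts, and Gbp2, whose difference did not pass the threshold used below, are shown. Whether the letters bear on the levels was not tested. The promoter table of RefSeq, on build GRCm38.p6, held 7 start sites for 6 of the 10 members (Igtp, Irgm1, Irgm2, Gbp2, Gbp7 and 2 for Gbp3), and the 250 bases before each were searched for GAS as TTCNNNGAA, which reads the same on both strands, and for the ISRE core, GAAA followed after any 2 bases by GAAA, on either strand. Each line below reads 5′ to 3′ on the gene's strand, in lower case, with capitals at motif matches. Overlapping or adjoining matches run together in the capitals.
Igtp, chr11:58199306-58199555, plus strand: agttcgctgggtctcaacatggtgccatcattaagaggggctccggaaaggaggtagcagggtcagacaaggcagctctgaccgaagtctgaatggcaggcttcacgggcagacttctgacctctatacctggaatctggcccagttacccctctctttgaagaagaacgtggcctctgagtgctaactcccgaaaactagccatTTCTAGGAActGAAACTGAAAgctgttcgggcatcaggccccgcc
Irgm2, chr11:58214727-58214976, plus strand: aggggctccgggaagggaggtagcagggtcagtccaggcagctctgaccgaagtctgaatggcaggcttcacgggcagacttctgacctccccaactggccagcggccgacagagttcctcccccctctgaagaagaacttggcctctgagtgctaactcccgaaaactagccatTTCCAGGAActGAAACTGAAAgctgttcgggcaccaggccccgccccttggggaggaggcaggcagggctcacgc
Irgm1, chr11:48871421-48871670, minus strand: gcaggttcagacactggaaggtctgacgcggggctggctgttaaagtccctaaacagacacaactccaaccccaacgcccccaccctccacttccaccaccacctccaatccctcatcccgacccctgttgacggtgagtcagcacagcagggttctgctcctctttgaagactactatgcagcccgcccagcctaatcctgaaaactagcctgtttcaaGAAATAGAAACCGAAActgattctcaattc
Gbp7, chr3:142530086-142530335, plus strand: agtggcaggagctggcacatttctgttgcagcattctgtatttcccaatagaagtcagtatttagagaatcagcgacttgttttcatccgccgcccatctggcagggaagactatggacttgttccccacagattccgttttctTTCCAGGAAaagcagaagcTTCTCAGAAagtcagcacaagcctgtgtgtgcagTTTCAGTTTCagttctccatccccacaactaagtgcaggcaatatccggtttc
Gbp2, chr3:142620413-142620662, plus strand: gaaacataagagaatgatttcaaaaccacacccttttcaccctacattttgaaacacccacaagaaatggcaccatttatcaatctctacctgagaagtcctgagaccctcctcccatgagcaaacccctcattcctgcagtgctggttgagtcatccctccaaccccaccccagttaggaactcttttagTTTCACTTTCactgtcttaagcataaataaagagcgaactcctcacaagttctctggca
Gbp3, upstream start site, chr3:142559794-142560043, plus strand: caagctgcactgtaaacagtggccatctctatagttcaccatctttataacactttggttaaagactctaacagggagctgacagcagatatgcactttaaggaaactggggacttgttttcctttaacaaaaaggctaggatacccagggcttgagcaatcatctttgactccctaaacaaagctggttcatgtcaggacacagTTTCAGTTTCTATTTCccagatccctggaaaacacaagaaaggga

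An ISRE core was found in 6 of these 7 stretches, against 2.98% of the 32851 promoters in the table, and GAS in 3 of 7, against 7.02%. The members were picked as interferon-inducible genes, so these shares are a description and not a test. The stretches are also not separate cases, as Gbp3 gave 2 and those of Igtp and Irgm2 share long runs of letters. Igtp and Irgm2 had the same layout, a GAS followed after 2 bases by an ISRE core with the same letters. That pair lay 45 bases before the start site in Igtp and 75 bases before it in Irgm2. Gbp7 had GAS at 106 and 87 bases and an ISRE core at 53 bases before the start. Irgm1 and the upstream start of Gbp3 had 2 overlapping ISRE cores each and no GAS, Gbp2 had 1 ISRE core and no GAS, and the downstream start of Gbp3 had neither. The upstream start of Gbp3, higher in young muscle than in young spleen, and that of Irgm1, lower there, held the same kind and number of matches. The downstream start of Gbp3 held none, and whether matches bear on the levels was not tested. A match is a description of the letters in this window and not a binding site.

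**Figure D1:**
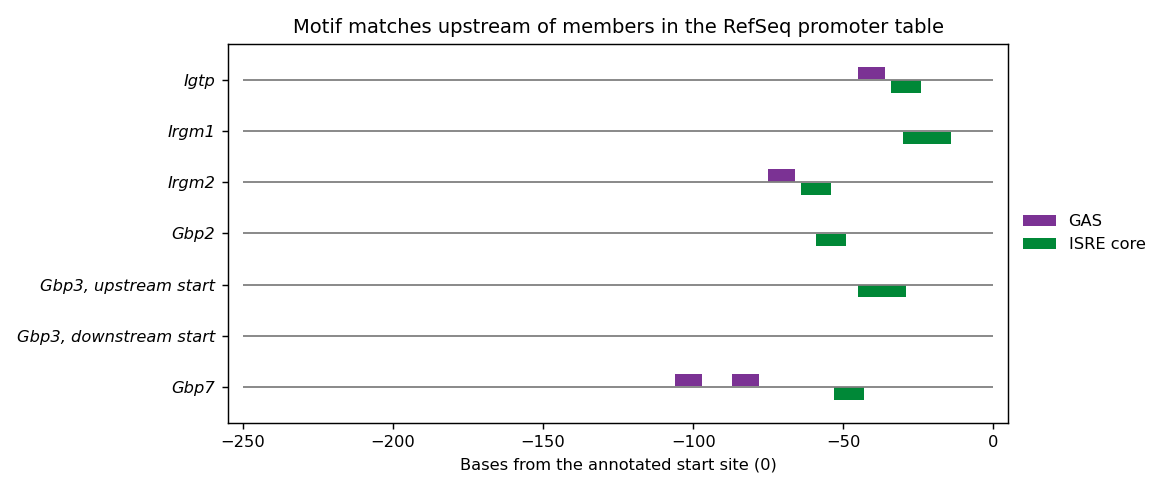
Matches to GAS (purple) and to the ISRE core (green) in the 250 bases before the annotated start of members in the RefSeq promoter table, drawn to scale with 0 at the start site. Every stretch but the downstream start of Gbp3 holds an ISRE core within 64 bases of the start, and Igtp, Irgm2 and Gbp7 also hold GAS.

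Igtp and Gbp4 were at 0 counts in all 8 libraries and could not be tested. For a single library, 0 counts allow a level of up to 0.736 CPM (read counts scaled to a common library size with TMM factors) in the deepest library and 1.5 CPM in the shallowest, for counting error only. That limit holds for what was counted and not for the RNA, because 34.7% of the symbols in the table were at 0 everywhere, among them Irf8 and 2 further GTPase genes, Irgc1 and 9930111J21Rik1. In GENCODE M21 on GRCm38, Igtp (chromosome 11, 58199556 to 58207591) and Irgm2 (58199618 to 58222782) overlap on the plus strand, and Igtp shares 8.01% of its exonic bases with Irgm2. Gbp4 (chromosome 5, 105115767 to 105139586) shares 0.814% of its exonic bases with Gbp8 and Gbp9. The annotation the authors counted on is not given in the sources used here, so whether reads of Igtp were assigned to Irgm2 or dropped was not tested, and Irgm2 is given below as a count that may mix both.

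The other 8 members had at least 11 counts in every library. Per kilobase of exon, which is the scale for comparing genes, Irgm2 stood above the rest in each group, with a mean of 159 CPM per kilobase for young spleen libraries and 132 for aged ones, and of 83 for young and 147 for aged muscle libraries. Gbp2, Gbp3 and Gbp7 came next, with means between 27.7 and 43.5 CPM per kilobase over the 4 groups, and their order changed from group to group. Iigp1, Irgm1 and Gbp6 lay between 2.43 and 19, and Gbp9 between 1.49 and 5.16. Whether reads covered transcripts evenly was not tested, so these levels across genes are approximate.

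Library totals ranged from 1969982 to 4008622 counts, and the 2 libraries of each group were further apart than counting error (chi-square of 3.83 to 8.61 per gene). All 10 Treg markers were detected in every library, with Foxp3 between 15.4 and 41.5 CPM. Some of them differed between the ages in muscle. Ctla4 was at 2470 CPM in both young and at 1480 and 1330 CPM in the aged muscle libraries. Ikzf2 went the other way, from 554 and 609 to 1050 and 880 CPM, and Ikzf4 from 69.6 and 79.4 CPM to 138 CPM in both. Of 24 myeloid markers listed, 22 were in the table, and they summed to 1310 and 438 CPM in young muscle, 670 and 574 in aged muscle and 315 to 831 in spleen. Cd74, which professional antigen-presenting cells express, made up 291 and 223 CPM of the aged and 72.4 and 43 CPM of the young muscle sums. It made up 293 and 325 CPM of the aged spleen sums, and Ctss was at 139 to 270 CPM in every library. Both young muscle libraries lay above both aged ones for Lyz2 (116 and 12 against 0.372 and 1.69 CPM), Tyrobp (74 and 7.99 against 1.86 and 0.846 CPM) and Fcer1g (39.8 and 7.99 against 0 and 0.846 CPM), and replicate 1 was the higher. C1qa was at 111 and 0 CPM in young and 0 and 7.19 CPM in aged muscle. Fibroblast and endothelial markers summed to 563 CPM in young muscle replicate 1 and to 161 to 354 CPM elsewhere. Pecam1 made up most of the spleen sums, at 146 to 344 CPM, and was at 119 to 205 CPM in muscle. Col1a1 was at 150 and 15 CPM in young muscle, 1.49 and 5.5 CPM in aged muscle and 1.02 to 5.14 CPM in spleen. Dcn was highest in aged muscle replicate 2, at 30.4 CPM.

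In young muscle the family was at its lowest. Summed over the members, the level was 740 and 834 CPM in the 2 young muscle libraries, against 1300 and 1130 in aged muscle. Spleen libraries summed to 1370 and 1120 CPM in young and 1110 and 1190 CPM in older mice. The immunity-related GTPases made up most of that gap. Their summed level was 334 and 375 CPM in young muscle and 620 to 822 CPM in the other 6 libraries. Most of this sum was Irgm2, whose count may include reads of Igtp. It was at 288 and 324 CPM in young muscle and at 574 and 508 CPM in aged muscle. The guanylate-binding proteins summed to 406 and 459 CPM in young muscle and to 427 to 551 CPM elsewhere, so these ranges overlapped. The ratio of the immunity-related GTPase sum to the guanylate-binding protein sum was 0.821 and 0.817 in young muscle and 1.23 to 1.6 in the other libraries. These sums are of CPM not scaled for gene length, so the ratio depends largely on Irgm2 and is no measure of the class as a whole. In bulk RNA, fewer cells that express a gene and less RNA per cell cannot be told apart.

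**Figure D2:**
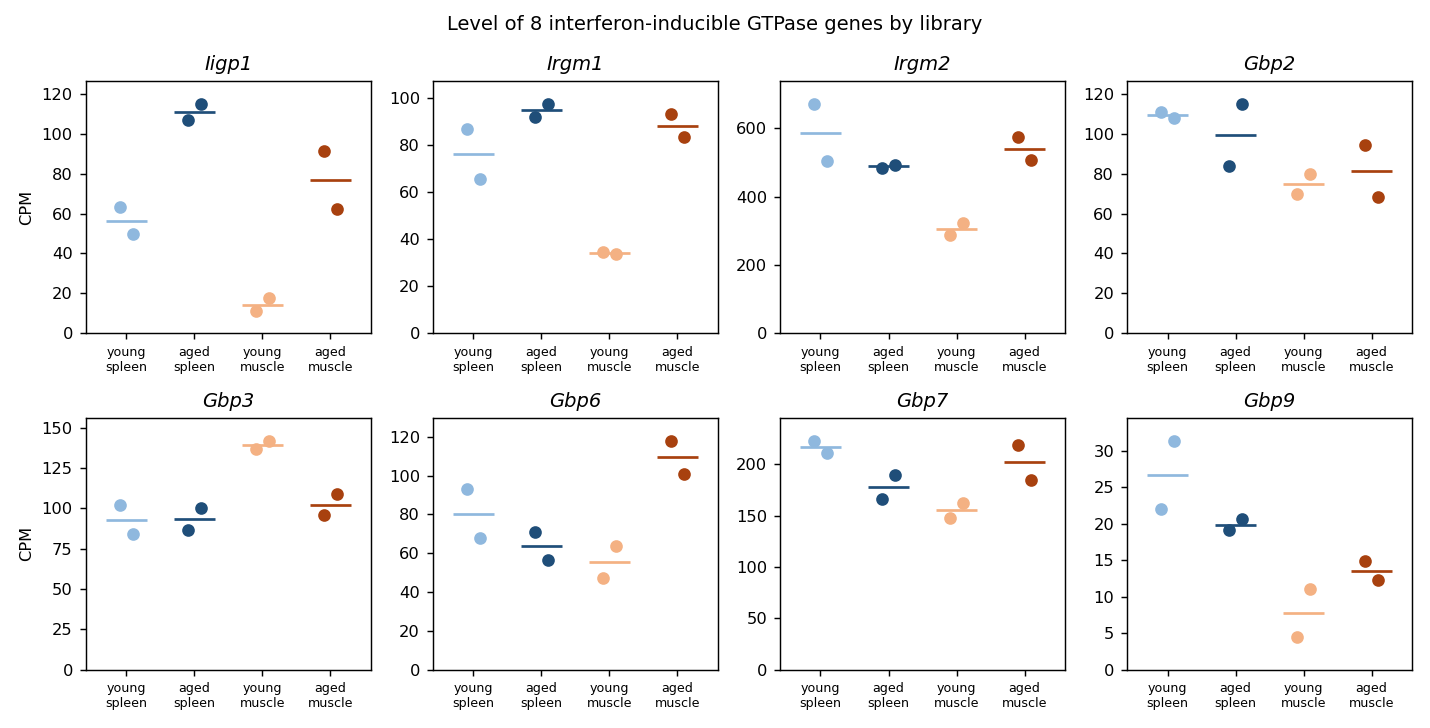
Level in CPM of the 8 measured members in each library (points, 2 per group) with the group mean (line), on axes that start at 0. Iigp1, Irgm1, Irgm2, Gbp7 and Gbp9 are lowest in both young muscle libraries, while Gbp3 is highest there, at 137 and 142 CPM.

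Age in muscle was compared to ask how Tregs of injured muscle differ between young and older mice. By edgeR's quasi-likelihood test with Benjamini-Hochberg adjustment over 14772 genes at 0.05, 4 of the 8 tested members rose and 0 fell, where 1.14% of all tested genes rose and 0.88% fell. At an unadjusted p under 0.05 the numbers were 5 higher and 1 lower, where 7.6% and 7.69% of all genes were, and DESeq2 gave 4 and 0, where it called 1.74% of genes higher and 1.87% lower. The median log2 fold change was 0.83 over the 8 members and 0.03 over all genes. The 2 aged libraries lay above both young libraries for 6 members, where 21.2% of all genes did so, and below them for 1, where 20.3% did.

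Iigp1 (chromosome 18, 60376027 to 60392634), an effector GTPase that oligomerises on the vacuole of the parasite Toxoplasma, was read at 10.9 and 17.5 CPM in young muscle and at 91.6 and 62.2 CPM in aged muscle. The aged libraries lay far above the young ones, although they differed from each other by more than the young ones did. The rise was 5.49-fold, or 2.46 ± 0.29 in log2 units (± is the standard error here and below; edgeR adjusted p = 0.00029). It was the member with the largest change, and it kept its call in all 14 alternatives run, with log2 fold changes of 2.11 to 2.80.

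Irgm1 (chromosome 11, 48861968 to 48871683), a regulator on Golgi and lysosomal membranes that mice need to resist mycobacteria, was at 34.6 and 33.5 CPM in young and 93.1 and 83.3 CPM in aged muscle. The young libraries were nearly equal and well below the aged ones. Its log2 fold change was 1.37 ± 0.22 (edgeR adjusted p = 0.0035), and it was called in 13 of 14 alternatives, not when only these 2 groups were fitted (adjusted p = 0.087). Irgm2, a regulator on Golgi membranes, was at 288 and 324 CPM in young and 574 and 508 CPM in aged muscle. Here too the groups did not overlap, with a smaller log2 fold change of 0.82 ± 0.16 (edgeR adjusted p = 0.016). Its call ended without young muscle replicate 1 (0.73), without either aged spleen library (0.81 in each case) and with only the 2 groups fitted (0.83).

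The guanylate-binding proteins moved less uniformly. Gbp6 (chromosome 5, 105270702 to 105293698) was at 47.1 and 63.9 CPM in young and 118 and 101 CPM in aged muscle, with no overlap. Its log2 fold change was 0.99 ± 0.24 (edgeR adjusted p = 0.045), close to the threshold, and the call held in 6 of 14 alternatives and in 1 of the 8 that left out a library. In GENCODE M21, 29.0% of its exonic bases also belong to the overlapping gene Gm43302, whose reads counting may not separate from it.

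Gbp7 (chromosome 3, 142530342 to 142550149), which in mice links the phagocyte oxidase to killing of bacteria, was at 148 and 162 CPM in young and 219 and 185 CPM in aged muscle. Its log2 fold change of 0.38 ± 0.17 did not pass (edgeR adjusted p = 0.29), although the libraries did not overlap. Gbp9 (chromosome 5, 105077630 to 105139539) was at 4.43 and 11 CPM in young and 14.9 and 12.3 CPM in aged muscle. With 11 and 22 counts in the young libraries, its difference of 0.84 ± 0.49 was not resolved at this depth (edgeR adjusted p = 0.44). Gbp2 (chromosome 3, 142620602 to 142638008), which coats Toxoplasma vacuoles and bacteria in the cytosol, was at 69.6 and 79.9 CPM in young and 94.2 and 68.1 CPM in aged muscle. These ranges overlapped, and the log2 fold change was 0.12 ± 0.22 (edgeR adjusted p = 0.84).

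Gbp3 (chromosome 3, 142560026 to 142573209), a gene of the same cluster as Gbp2 and Gbp7, was the exception. It was at 137 and 142 CPM in young muscle and 95.7 and 109 CPM in aged muscle, so both aged libraries lay below both young ones. The log2 fold change of -0.44 ± 0.19 had an unadjusted p of 0.031 and did not pass after adjustment (edgeR adjusted p = 0.26), and it was negative in all 14 alternatives. Gbp3 made up 18.5 and 17.0% of the family's summed CPM in young muscle and 7.36 to 9.66% in the other 6 libraries. Gbp2, Gbp3 and Gbp7 lie in a cluster on the plus strand of chromosome 3 with the related Gbp2b and Gbp5, so reads shared between these copies may have been split or dropped.

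Myeloid markers moved with age in muscle as well. Of 18 tested, 15 had a negative log2 fold change, with a median of -3.26, and 2 fell (Fcer1g and Tyrobp) while 1, Cd74, rose. In young muscle against young spleen 7 of the 18 were higher and 0 lower. With age in spleen 16 of the 18 had a positive log2 fold change, with a median of 1.225, and 2 rose (Cd74 and Cybb). For the difference of age effects 17 were negative, with a median of -4.40, and 3 were lower and 0 higher. Of all tested genes 2.08% rose in spleen, and 1.17% were lower in the difference. Without young muscle replicate 1, Iigp1 rose by 2.13 (edgeR adjusted p = 0.00096) and Irgm1 by 1.39 (0.014), while Irgm2 (0.73) and Gbp6 (0.77) did not pass. Replicate 2 also held myeloid RNA, and the part of these cells in the members' levels was not tested in either tissue.

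**Figure D3:**
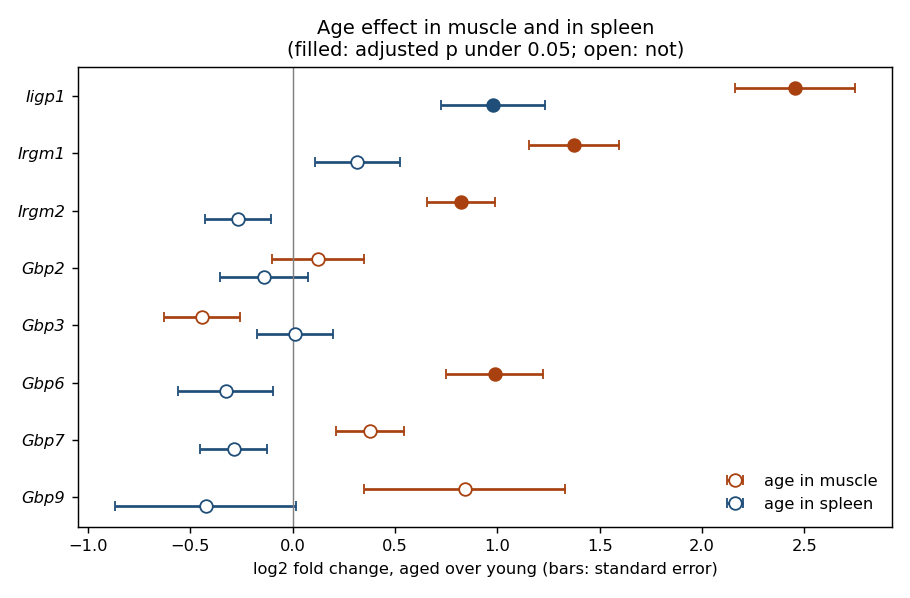
Log2 fold change of aged over young for each tested member in muscle (orange) and in spleen (blue), with bars of 1 standard error. Filled points passed the adjusted threshold. In muscle Iigp1, Irgm1, Irgm2 and Gbp6 are filled and lie between 0.82 and 2.46, and in spleen only Iigp1 is filled, at 0.98.

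Age in spleen asks whether Tregs outside the injured muscle differ too. Of the 8 tested members 1 rose and 0 fell, where 2.08% of all genes rose and 2.17% fell, and at an unadjusted p under 0.05 the numbers were the same, where 9.12% and 7.53% of all genes were higher and lower. DESeq2 also called 1 higher and 0 lower, where it called 2.74% and 3.12% of genes. Both aged libraries lay above both young ones for 2 members and below them for 3, where 28.8% and 24% of all genes did so. The member that rose was Iigp1, at 63.1 and 49.6 CPM in young spleen and 107 and 115 CPM in aged spleen, with a log2 fold change of 0.98 ± 0.25 (edgeR adjusted p = 0.041). That call ended without any 1 of the 4 spleen libraries, with values from 0.83 to 1.16. Irgm1 was at 86.9 and 65.5 CPM in young and 91.9 and 97.4 CPM in aged spleen, which do not overlap, and its 0.32 ± 0.21 did not pass. Irgm2 had the opposite sign, from 672 and 504 CPM to 485 and 492 CPM, at -0.27 ± 0.16. The 5 guanylate-binding proteins had log2 fold changes of -0.43 to 0.01, with edgeR adjusted p from 0.405 to 0.99.

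The difference of the age effects, muscle minus spleen, was tested directly. It was higher for 2 of 8 members and lower for 0, where 1.35% of all genes were higher and 1.17% lower. At an unadjusted p under 0.05 the numbers were 5 and 0, where 5.9% and 7.1% of all genes were, and DESeq2 gave 3 and 0, where it called 1.92% and 1.75%. Irgm2 had a difference of 1.09 ± 0.23 (edgeR adjusted p = 0.018) and Gbp6 of 1.31 ± 0.33 (edgeR adjusted p = 0.0496). Iigp1, with the largest difference at 1.48 ± 0.39, did not pass (edgeR adjusted p = 0.0598) but did by DESeq2 (adjusted p = 0.045), without a filter, with the replicate as a block (1.46, adjusted p = 0.047), without young muscle replicate 2 (1.82) and without aged muscle replicate 2 (1.73). Irgm1 had 1.06 ± 0.30 (edgeR adjusted p = 0.0913), and Gbp3 was the only member below 0, at -0.45 ± 0.26. The call of Irgm2 ended without young spleen replicate 1 (0.85), either aged spleen library (1.06 in each case) or young muscle replicate 1 (0.99). That of Gbp6 ended without every library except young muscle replicate 2 (1.05 to 1.5) and with library-size scaling (1.25).

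Muscle was also set against spleen at each age. The young comparison shares the young muscle libraries with the age comparison in muscle, so the fall seen here and the rise with age there are not separate evidence. In young mice 5 of 8 members were lower in muscle and 1 was higher, where 10.9% of all genes were lower and 11.4% higher. Iigp1 had a log2 fold change of -2.00 ± 0.30 (edgeR adjusted p = 0.00022), Irgm1 -1.16 ± 0.22 (0.0018) and Irgm2 -0.94 ± 0.17 (0.00088), and these 3 kept their calls in all 14 alternatives. All 7 members other than Gbp3 had both muscle libraries below both spleen libraries, where 30% of all genes did so, and Gbp3 had both above, where 31.7% did. Gbp9 had -1.81 ± 0.49 (edgeR adjusted p = 0.015), from 22.0 and 31.4 CPM in young spleen, and lost its call without young muscle replicate 1 (-1.30) or young spleen replicate 2. Gbp7 had -0.48 ± 0.17 (edgeR adjusted p = 0.049), a call that held in 3 of 14 alternatives. Gbp3 was the member higher in muscle, at 0.58 ± 0.19 (edgeR adjusted p = 0.037), from 102 and 84.1 CPM in young spleen, with the call in 7 of 14 alternatives.

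In the older mice fewer members passed between the 2 tissues. Of 8, 1 was higher in muscle and 0 lower, where 9.57% of all genes were higher and 9.27% lower. The numbers were the same at an unadjusted p under 0.05, where 18% and 16.5% of all genes were higher and lower, and by DESeq2, which called 11.1% and 7.37%. Gbp6 was that member, at 71.1 and 56.3 CPM in aged spleen and a log2 fold change of 0.78 ± 0.23 (edgeR adjusted p = 0.029), and its call ended without any 1 of the 4 libraries compared (0.58 to 0.93) or without young spleen replicate 1 (0.74). Iigp1 had -0.52 ± 0.25 (edgeR adjusted p = 0.15), and Irgm1, Irgm2, Gbp2, Gbp3 and Gbp7 lay between -0.29 and 0.18. Gbp9 had -0.55 ± 0.46 (edgeR adjusted p = 0.411). The groups did not overlap for 2 members higher and 2 lower in muscle, where 33% and 32.4% of all genes did so. The median over the 8 members was -0.747 in young mice and 0.015 in the older mice, beside 0.07 and 0.03 over all genes.

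Upstream of the GTPases, the ligand and its receptor showed no change with age that passed. Ifng was read at 0.805 and 4.00 CPM in young and 4.84 and 8.46 CPM in aged muscle, which is 2 to 20 counts per library, and its difference of 1.49 ± 1.1 was not detectable at this depth (edgeR adjusted p = 0.54). Young spleen held the lowest and highest spleen values, 1.40 and 14.7 CPM. Ifngr1, the ligand-binding chain, was at 652 and 664 CPM in young and 764 and 627 CPM in aged muscle (0.08 ± 0.15, edgeR adjusted p = 0.84). It was higher in muscle than in spleen at both ages, by 1.38 ± 0.15 in young and 1.54 ± 0.15 in older mice (edgeR adjusted p = 1.25e-05 and 8.08e-06). Ifngr2, the signalling chain, was at 36.6 and 30.0 CPM in young and 28.3 and 31.3 CPM in aged muscle, a difference of -0.16 ± 0.28. In young muscle against young spleen Ifngr2 was lower, at -0.87 ± 0.275 (edgeR adjusted p = 0.035), and so was Jak1, at -0.60 ± 0.15 (0.011). Jak2 was higher there, at 0.71 ± 0.20 (edgeR adjusted p = 0.0205). In older mice Ifngr2, Jak1 and Jak2 did not pass between the tissues. Whether any of these differences bears on the members' levels was not tested.

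Among the signalling factors, Irf1 was at 517 and 519 CPM in young and 620 and 587 CPM in aged muscle, a difference of 0.22 ± 0.14 (edgeR adjusted p = 0.47). Irf1 rose with age in spleen by 0.51 ± 0.14 (edgeR adjusted p = 0.0481), a call that held in 7 of 14 alternatives. Stat2, at 33 and 37 CPM in young and 65.2 and 71.9 CPM in aged muscle, and Irf9, at 87.3 and 111 CPM in young and 184 and 157 CPM in aged muscle, are partners in the type I interferon complex, and neither overlapped between the ages. They rose with age in muscle by 0.97 ± 0.23 and 0.78 ± 0.18 (edgeR adjusted p = 0.042 and 0.041). Leaving out young muscle replicate 1, aged muscle replicate 1 or any single spleen library ended both of these calls, and aged muscle replicate 2 that of Stat2.

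**Figure D4:**
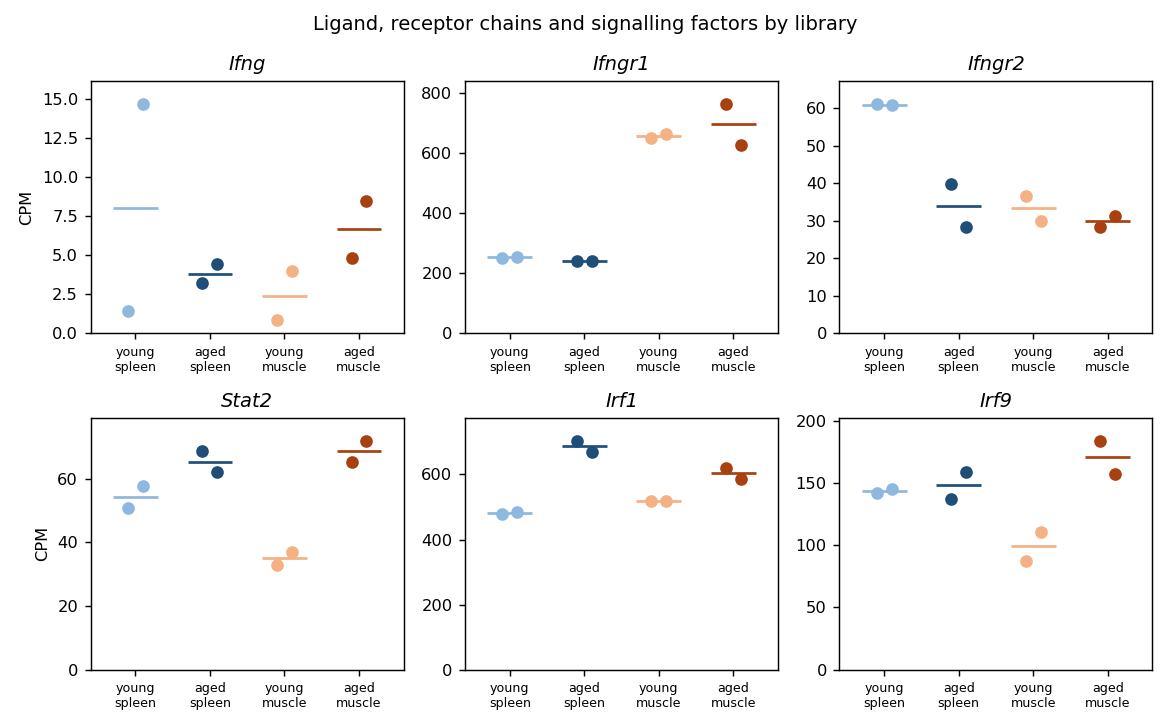
Level in CPM of the ligand Ifng, the receptor chains Ifngr1 and Ifngr2 and the factors Stat2, Irf1 and Irf9 in each library (points) with the group mean (line), on axes that start at 0. Stat2 and Irf9 are lowest in both young muscle libraries, Stat2 at 33 and 37 CPM, while Ifngr1 is high in all 4 muscle libraries and Irf1 lies between 478 and 704 CPM.

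Of 19 further interferon-inducible GTPase genes listed, 13 were tested, 1 rose with age in muscle and 0 fell, and 6 were higher at an unadjusted p under 0.05, where 7.6% of all genes were. Their median was 0.82, near the 0.83 of the members. Gbp8, a neighbour of Gbp9 on chromosome 5, was at 53.9 and 55.4 CPM in young and 126 and 101 CPM in aged muscle, and rose by 1.05 ± 0.19 (edgeR adjusted p = 0.0069). That call ended without young muscle replicate 1 (1.03) or with only the 2 groups fitted (1.06). Its age effects differed by 1.29 ± 0.26 between the tissues (edgeR adjusted p = 0.012), a call that ended without any 1 spleen library. Tgtp1 and Tgtp2, near-identical GTPase genes, had 0 to 6 counts per library and were not tested.

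Outside the GTPases, 4 of 16 tested interferon-gamma targets rose with age in muscle and 0 fell, with a median of 0.58. Of all tested genes 1.14% rose and 0.88% fell. Cxcl10, a chemokine for Cxcr3-bearing cells, was at 13.7 and 13 CPM in young and 60.3 and 68.1 CPM in aged muscle (2.26 ± 0.37, edgeR adjusted p = 0.0036). It also rose in spleen, from 7 and 3 counts in the young libraries to 88 and 57 counts in the aged ones, by 3.23 ± 0.46 (edgeR adjusted p = 0.00078), and by 2.65 to 4.09 when 1 library was left out. Tap1, a peptide transporter of antigen presentation, and Psmb9, an immunoproteasome subunit, rose by 0.59 ± 0.14 and 0.74 ± 0.18 (edgeR adjusted p = 0.046 and 0.042), and Ifi35 by 0.91 ± 0.21 (0.038). These 3 calls held in 6, 7 and 5 of 14 alternatives, and that of Ifi35 ended without any 1 of the 8 libraries.

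Of 17 genes of ATG8 conjugation, autophagy and vacuole tagging, 1 rose with age in muscle and 0 fell, with a median of -0.24. It was Rnf213, an interferon-inducible ubiquitin ligase, from 32.6 and 39.5 CPM to 117 and 99.4 CPM (1.59 ± 0.22, edgeR adjusted p = 0.0011). Its difference of age effects was 1.70 ± 0.30 (edgeR adjusted p = 0.00604), a call that ended when young spleen replicate 1 or the second aged spleen library was left out. Of 21 type I interferon antiviral genes, 15 rose with age in muscle and 0 fell, where 1.14% of all genes rose and 0.88% fell. Their median was 1.82, above the 0.83 of the members, so the rise was not particular to the GTPases. In the difference of age effects 8 of the 21 were higher and 0 lower, where 1.35% and 1.17% of all genes were. In older muscle against spleen 10 were higher and 1 lower, where 9.57% and 9.27% of all genes were.

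The genes whose pattern over the 8 libraries was most like the members' mean of z-scored log2 CPM, by Pearson's r among 8197 tested genes with a mean log2 CPM of at least 4, were Yme1l1 (0.956), Herc6 (0.952), Zbtb25 (0.951), Usp26 (0.944) and Usp18 (0.941). The points share libraries and depth, and r is a description over 8 libraries in 4 groups. They were chosen for following the members over the same libraries, so their age effects are given as a description with no test. The log2 fold changes with age in muscle were 0.65 for Yme1l1, a mitochondrial protease, 1.00 for Herc6, which in mice joins Isg15 to proteins, and 0.82 for Zbtb25. They were 2.00 for Usp26, a deubiquitinase gene, and 2.33 for Usp18, a protease that removes Isg15 and dampens type I interferon signalling. Usp18 was at 3.62 and 11 CPM in young and 39.1 and 32.6 CPM in aged muscle. Among the members, r with the mean of the other tested members was 0.957 for Irgm2, 0.868 for Gbp7, 0.817 for Irgm1 and 0.794 for Iigp1, and -0.819 for Gbp3.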

How the data were processed

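Values are the raw counts the authors deposited, whole numbers for each gene symbol in 8 libraries. The submitters' processing notes name HTSeq, TopHat2, TopHat, SAMtools 0.1.19, Picard and build mm10. For annotation, strand and aligner options the sources used here give nothing. Per the labels' protocols, RNA was amplified by in vitro transcription for 9 hours and by 15 cycles of PCR, with no molecular identifiers described, so counts are reads and copies of a transcript are not independent.

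All 8 columns were used and 0 rows lacked a name. With edgeR 4.0.16 in R 4.3.3, filterByExpr kept 14772 genes, libraries were scaled by TMM, and 1 robust quasi-likelihood fit with a coefficient per group was made on 8 libraries, with 4 residual degrees of freedom. Tests were two-sided with Benjamini-Hochberg adjustment over all tested genes at 0.05. Standard errors are the absolute log2 fold change divided by the root of F. CPM values are given per library, and logged CPM used a prior count of 2. Alternatives were other scalings, no filter, DESeq2 1.42.0, only the groups compared, a replicate block and leaving out each library. The fit was also run on simulated data in which only aged muscle libraries were given changes, with the spread taken from the fit itself. That run held no tissue differences and no uneven cell mixtures, so it does not cover them in the real libraries. GENCODE M21, on GRCm38 (mm10), gave exon lengths and positions. The members, lists and named genes (members, listed genes past the threshold in muscle or in the difference, and the most alike genes) were chosen with earlier results of these data known, and genes at 0, Tgtp1, Tgtp2 and cell markers were named after their values were seen. Some results are not reported here.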

Additional observations from a re-analysis of the deposited data

Results flagged for a closer look

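The age effect in muscle differed from that in spleen, by the test of the difference itself, for 2 members, Irgm2 at 1.09 and Gbp6 at 1.31 on the log2 scale. Genes with such a difference among the further GTPases, interferon-gamma signal and target genes and autophagy partners were Gbp8 at 1.29, Ifi35 at 1.26 and Rnf213 at 1.70. Of the 21 type I interferon antiviral genes, 8 were also higher in this difference and 0 lower, with a median of 1.61. Of all tested genes 1.35% were higher and 1.17% lower. The calls held in 9 of 13 alternatives for Irgm2 and Gbp8, 5 for Gbp6, 7 for Ifi35 and 11 for Rnf213. For these 5 named genes the log2 fold change with age was above 0 in muscle and below 0 in spleen. The spleen values lay between -0.35 and -0.11 and none passed, and they add to the difference. The comparisons share the spread estimated for each gene.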

How the results depend on the processing

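Members called higher with age in muscle numbered 4, and 1 when only the 2 groups were fitted, with 2 to 4 without any 1 library. In spleen the number was 1, and 0 to 1 without a library. For the difference of age effects it was 2, with 1 under library-size scaling and 0 to 3 without a library. In young muscle against spleen 1 was higher, with 0 without a filter and 0 to 1 without a library, and 5 were lower, with 3 to 5. In older mice 1 was higher, with 0 to 1. None was lower in the other 4 comparisons under any alternative. Library-size scaling moved the median of all genes from 0.03 to 0.15 with age in muscle and from 0.05 to 0.21 in spleen.

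Signs changed only for values near 0 or of few counts. Without any 1 library, Gbp2 ranged from -0.17 to 0.34 with age in muscle and from -0.01 to 0.48 in the difference, lowest without aged muscle replicate 1, and from -0.37 to 0.08 in spleen, highest without aged spleen replicate 1. Gbp2 in spleen was 0.02 with library-size scaling. Gbp3 in spleen was -0.01 with RLE size factors and with DESeq2 and ranged from -0.11 (without young spleen replicate 2) to 0.16, and in older muscle against spleen from -0.00 (without aged spleen replicate 1) to 0.19. Ifngr1 ranged from -0.10 to 0.22 in muscle and from -0.01 to 0.29 in the difference, lowest without aged muscle replicate 1, and was 0.09 in spleen with library-size scaling. Ifng in spleen ranged from -1.94 to 1.42, highest without young spleen replicate 2. The cause was not tested.

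The replicate numbers are not stated to pair libraries, and same-numbered libraries deviated together with correlations of -0.065 to 0.256. With the replicate as a block 4 members rose in muscle, 1 in spleen and 3 in the difference, where Iigp1 joined Irgm2 and Gbp6.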
